A study of Mus musculus with 18 samples.

Results

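Cytokines and colony-stimulating factors are secreted proteins with which cells instruct each other, and sarcoma cells can make some of them. The 10 genes described here were chosen by name in the gene column of the count table (*Il6*, *Il11*, *Lif*, *Il1rn*, *Il33*, *Il34*, *Csf1*, *Csf2*, *Csf3* and *Tslp*), and all 10 were found among its 35275 genes. They were measured by RNA sequencing in cell lines from malignant peripheral nerve sheath tumors (MPNSTs), sarcomas of the nerve sheath, in a comparison of the loss of *p53* with the loss of *Cdkn2a* on top of the loss of *Nf1*. *Nf1* encodes neurofibromin, a brake on RAS signaling, and *Cdkn2a* encodes the cell cycle inhibitors INK4A and ARF.

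The tumors were raised in wild-type 129 Sv/Jae mice by injecting the sciatic nerve with an adenovirus that carried Cas9, driven by the CMV promoter, and guide RNAs. Separate tumors gave the 3 *Nf1*/*p53* dKO lines (labeled Nf1-/-;p53-/-) and the 3 *Nf1*/*Cdkn2a* dKO lines (Nf1-/-;Cdkn2a-/-), where dKO stands for double knockout, and each line was plated in 3 untreated cultures. Both genotypes carry the *Nf1* deletion, each line stems from 1 tumor, and the ages of the mice are not given in the sources used here. The CMV promoter is not specific to a cell type, so the cell that was edited is not defined by the virus. Before RNA was taken, the lines had been passaged repeatedly in serum-containing medium, a step meant to leave tumor cells without the immune and stromal cells of the host.

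Each library held 19560535 to 28312207 counts (median 23149777), and the counts of the 3 cultures of a line summed to 65206479 to 73065228. Levels are given as CPM, counts scaled to a common library size, here with TMM factors. The transcript of *Trp53*, the mouse p53 gene, stood at 94.1, 67.5 and 58.7 CPM in *Nf1*/*p53* lines 1 to 3. In *Nf1*/*Cdkn2a* lines 1 to 3 it stood at 247, 246 and 185 CPM, without overlap. *Nf1* stood at 70.0, 33.5 and 27.7 CPM against 12.7, 38.3 and 16.2 CPM, and *Cdkn2a* at 363, 279 and 42.9 CPM against 169, 392 and 285 CPM. The transcript levels of *Nf1* and of *Cdkn2a* thus overlapped between the genotypes. A small guide-made deletion need not lower a transcript, so these levels do not check the labels of the *Nf1*/*Cdkn2a* lines.

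Markers of other cell types differed in level. T cell markers summed to at most 0.099 CPM in a line, with *Cd3d* and *Cd8a* at 0 in all cultures, and mast cell markers summed to at most 0.128 CPM, with 3 of 6 at 0. The 12 macrophage markers summed to 15.02 to 28.2 CPM in the *Nf1*/*p53* lines and to 34.2 to 51.0 CPM in the *Nf1*/*Cdkn2a* lines. Of that sum, *Laptm5*, a lysosomal membrane protein of blood cells, held 11.8, 11.0 and 18.6 CPM in the *Nf1*/*Cdkn2a* lines and at most 0.503 CPM in the others (adjusted p = 0.0301, but 0.0659 to 0.112 with a line other than *Nf1*/*p53* line 1 left out). *Cd14*, a coreceptor for endotoxin, held 18.2, 7.86 and 18.6 CPM against 14.5, 27.9 and 10.3 CPM, and *Cd68*, a lysosomal protein, held 1.96 to 7.14 CPM, while *Adgre1*, *Tyrobp* and *Aif1* did not exceed 0.0313 CPM. The mesenchymal markers, among which *Vim* had the highest and *Col1a2* the lowest log2 fold change (0.75 and -0.91, neither called), summed to 8294 to 17582 CPM per line, which goes with the labeled mesenchymal cell type. That sum drew much on *Vim*, at 4727 to 10207 CPM. Within it, *Thy1* ranged from 7.02 CPM in *Nf1*/*Cdkn2a* line 2 to 467 CPM in *Nf1*/*Cdkn2a* line 3, and *Pdgfra* from 39.0 to 295 CPM in these lines. Of the Schwann cell markers, *Sox10* did not exceed 0.099 CPM and none was called, with *Ngfr* lowest at a log2 fold change of -5.40 and 64.3 CPM in *Nf1*/*p53* line 2 alone. Endothelial markers summed to 1.25 to 2.57 CPM, with *Tek* called lower in the *Nf1*/*Cdkn2a* lines (-3.23, adjusted p = 0.0465, but 0.0606 to 0.155 with any line left out) and *Cdh5* highest at 1.61. Epithelial markers summed to 2.67 to 739 CPM through the keratins, with *Epcam* highest at a log2 fold change of 0.27 and at most 0.764 CPM, and *Cdh1* lowest at -3.20. The part of any of these cells or genes in the results that follow was not tested. In bulk RNA, fewer cells of a kind and less RNA per cell cannot be told apart.

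As background, the 10 proteins fall into families by the receptors they use. IL-6, IL-11 and LIF bind receptors that share the signal chain gp130, encoded by *Il6st*, and act through JAK kinases and the factor STAT3. IL-33 is an alarm signal of the IL-1 family that is kept in the nucleus of barrier and stromal cells until they are damaged, and *Il1rn* encodes the antagonist of the IL-1 receptor. CSF1 and IL-34 both bind the macrophage receptor CSF1R, GM-CSF (*Csf2*) and G-CSF (*Csf3*) drive granulocytes and monocytes, and TSLP acts on dendritic cells and type 2 lymphocytes.

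The members covered a wide range of levels. Set side by side per length of exon, *Csf1* was the most abundant member in 5 of 6 lines. Its mean over the lines of 143 CPM per kb lay at percentile 98.0 of the tested genes that have an annotated exon length. *Il33* followed with a mean of 41.5 CPM per kb (percentile 92.0), which came mostly from 1 line, and *Il34* with 14.7 (percentile 77.1). *Lif* reached 5.74 CPM per kb and *Il11* 2.42, near the middle of the tested genes (percentiles 57.1 and 40.4). *Il6* (0.654), *Tslp* (0.490), *Il1rn* (0.262), *Csf2* (0.238) and *Csf3* (0.121 CPM per kb) lay at percentiles 24.4 to 7.51. Of the members' summed level per kb, *Csf1* made up 76.3, 92.3 and 26.2% in *Nf1*/*p53* lines 1 to 3 and 78.0, 65.8 and 88.2% in *Nf1*/*Cdkn2a* lines 1 to 3, while *Il33* made up 64.5% in *Nf1*/*p53* line 3.

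**Figure D1:**
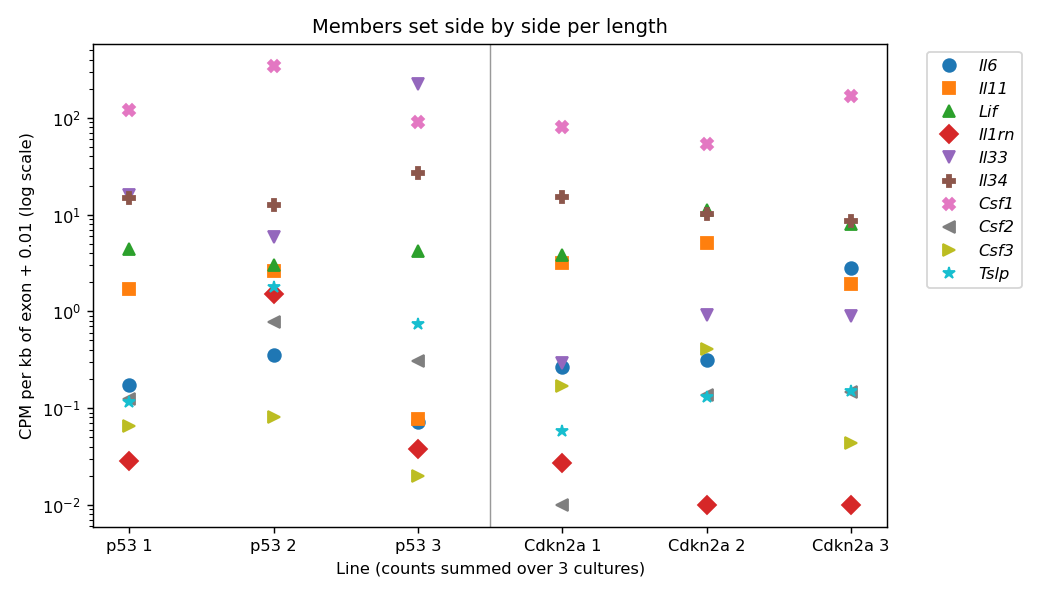
Level of each member in each line, as CPM per kb of exon plus 0.01 on a log axis, from counts summed over 3 cultures, with the *Nf1*/*p53* lines left and the *Nf1*/*Cdkn2a* lines right of the vertical rule. *Csf1* (pink crosses) was highest in 5 lines, and *Il33* (purple triangles) was above it in *Nf1*/*p53* line 3 at 225 against 91.1 CPM per kb.

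The first comparison asked which members differed between the genotypes, with the line as the unit of replication. At an adjusted p under 0.05 (edgeR's quasi-likelihood test on 3 against 3 lines, adjusted over all genes tested; SE below is its standard error), 274 of 15207 genes were called (1.80%), 97 of them higher (0.638%) and 177 lower (1.16%) in the *Nf1*/*Cdkn2a* lines. Of the 10 members, 7 passed the filter on low counts and none was called, while *Il1rn*, *Csf2* and *Csf3* did not pass and were not tested between the genotypes. By direction, *Il6*, *Il11* and *Lif* had positive and *Il33*, *Il34*, *Csf1* and *Tslp* negative log2 fold changes (*Nf1*/*Cdkn2a* minus *Nf1*/*p53*), with a median of -0.69 against -0.02 over all genes tested. An unadjusted p under 0.05 was reached by *Lif*, *Il33* and *Tslp*, as by 3400 of the 15207 genes. Only *Il33* of the 7 had line levels that did not overlap between the genotypes, which 31.4% of the tested genes showed.

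The count of called members depended on the test. With the 18 cultures taken as separate samples, edgeR called 5 (*Il6*, *Lif*, *Il33*, *Il34* and *Csf1*), a setting in which cultures of 1 tumor count as replicates of the genotype and which called 46.5% of 13110 genes. DESeq2 on the 6 lines called *Il33* and *Tslp*, and 12.0% of 17238 genes, but gave *Il6* no adjusted p. With a random effect for line, limma-voom called *Lif*, and 16.6% of 13110 genes. *Tslp* did not pass the filter in either setting on the 18 cultures, so it was not tested there.

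**Figure D2:**
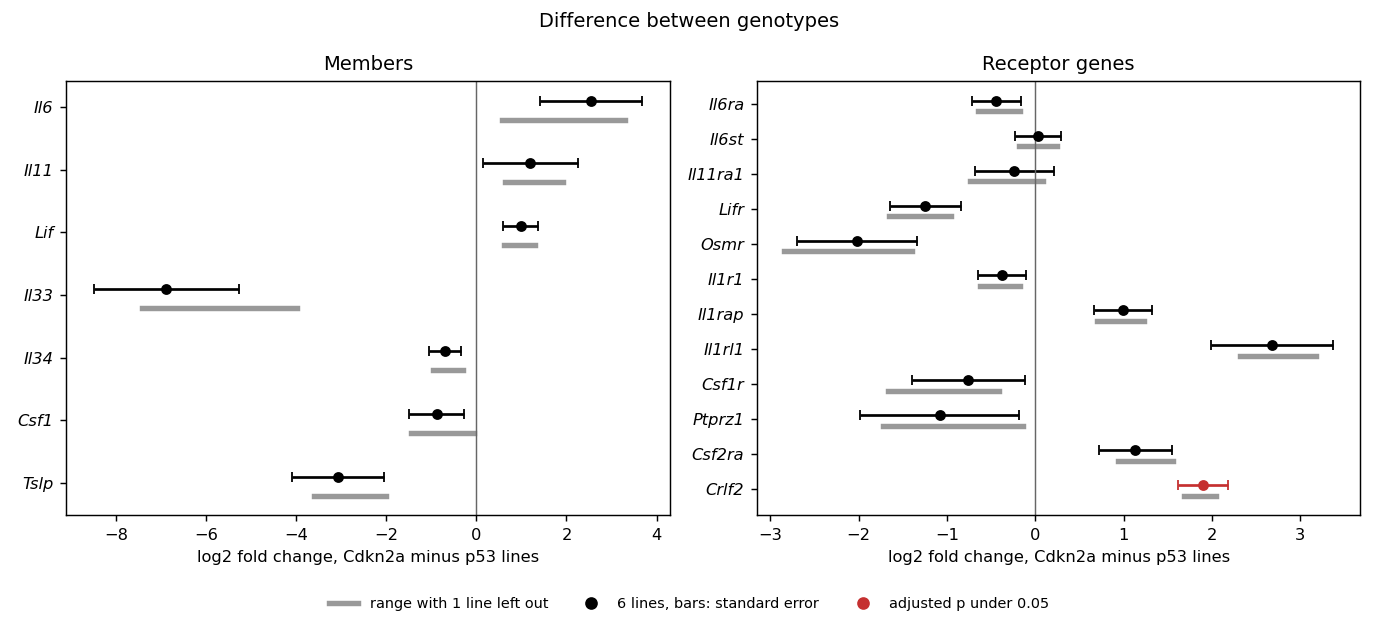
Log2 fold change between genotypes (positive when higher in the *Nf1*/*Cdkn2a* lines) of the 7 tested members and 12 tested receptor genes, with standard errors (black bars, edgeR on 6 lines) and the range when each line is left out in turn (gray bars). *Crlf2* (red) was the gene with an adjusted p under 0.05, and the gray bar of *Il33* ran from -7.42 to -3.97.

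The second comparison asked whether lines of the same genotype differed beyond the spread between their cultures, with an edgeR quasi-likelihood F test on the 18 cultures. Here 8 members passed the filter, *Il1rn* only through *Nf1*/*p53* line 2 and *Tslp* only through *Nf1*/*p53* lines 2 and 3, where each is high, so that the tests of these among the *Nf1*/*p53* lines are no evidence of a difference. All 8 were called among the 3 *Nf1*/*p53* lines, where 73.2% of 14690 genes were, and 7 of 8 (all but *Tslp*) were called among the 3 *Nf1*/*Cdkn2a* lines, where 56.8% of genes were. These tests compare individual tumor-derived lines, and their p-values rest on cultures of 1 line, which may be technical repeats.

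*Il33* had the largest spread of the members. The gene lies at chr19:29925114-29960718 on the plus strand of GRCm38. RefSeq gives it a pair of start sites, and the 250 bases before each are shown because *Il33* was the tested member without overlap between the genotypes. Capitals mark the TATA box letters (TATAAA, sense strand only), which 7.59% of the 32851 windows of this kind hold. The window before the upstream start is chr19:29924863-29925112, the window before the start inside the gene is chr19:29945540-29945789, both on the plus strand of GRCm38.p6.
*Il33* upstream window: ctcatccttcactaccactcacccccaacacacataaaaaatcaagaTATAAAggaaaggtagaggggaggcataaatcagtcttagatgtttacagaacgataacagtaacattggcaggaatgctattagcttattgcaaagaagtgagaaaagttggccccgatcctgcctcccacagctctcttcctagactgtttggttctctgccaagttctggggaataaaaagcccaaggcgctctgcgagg
*Il33* internal window: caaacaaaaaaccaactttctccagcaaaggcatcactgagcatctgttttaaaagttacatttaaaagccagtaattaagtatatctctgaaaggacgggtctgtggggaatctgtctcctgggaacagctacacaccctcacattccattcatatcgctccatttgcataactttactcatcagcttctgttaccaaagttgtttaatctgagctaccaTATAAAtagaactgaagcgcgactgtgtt
The match lies at -203 to -198 in the first window and at -29 to -24 in the internal window, counted from the start site with -1 as the base just before it. No match to AP-1, C/EBP, STAT or NF-kB, searched as for *Il6* below, was found in either window. Counts per gene do not show which start site was used.

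In *Nf1*/*p53* line 3, the 3 cultures held 667, 639 and 641 CPM of *Il33*. Line 1 held 48.3, 49.2 and 41.3 CPM, and line 2 held 18.02, 18.3 and 14.6 CPM. The *Nf1*/*Cdkn2a* cultures held 1.57, 0.267 and 0.602 CPM in line 1, 2.32, 2.46 and 3.13 CPM in line 2, and 2.58, 3.16 and 1.99 CPM in line 3. Every *Nf1*/*p53* culture was thus above every *Nf1*/*Cdkn2a* culture, and line 3 stood 14.0-fold above the next *Nf1*/*p53* line. Summed over cultures, the *Nf1*/*p53* lines averaged 237 ± 357 CPM (SD, n = 3) and the *Nf1*/*Cdkn2a* lines 2.00 ± 1.03 CPM (n = 3), a ratio of 118. On the log2 scale the difference was -6.89 (SE 1.61), with an unadjusted p of 0.00421 and an adjusted p of 0.0796. Without *Nf1*/*p53* line 3 it was -3.97, and over all lines left out in turn the adjusted p ran from 0.0718 to 0.216. Among the *Nf1*/*p53* lines the levels differed (adjusted p = 5.63e-23), with 99.8% of the variance of the log2 values lying between lines, and they differed among the *Nf1*/*Cdkn2a* lines too (adjusted p = 4.99e-05), where lines 2 and 3 overlapped in their cultures and line 1 was lower.

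The receptor side of IL-33 had its higher levels in the other genotype. *Il1rl1* encodes ST2, the IL-33 receptor, of which a membrane and a secreted form are made from the same gene and summed in these counts. It stood at 194, 302 and 81.6 CPM in the *Nf1*/*p53* lines and at 393, 1770 and 1546 CPM in the *Nf1*/*Cdkn2a* lines, without overlap. Its log2 fold change of 2.68 (SE 0.69, adjusted p = 0.0930) ran between 2.32 and 3.18 with a line left out, and it passed the threshold in 3 of 17 alternatives, among them DESeq2 on the 6 lines (adjusted p = 0.000598). *Il1rap*, which encodes the chain shared by the IL-1 and IL-33 receptors, stood at 41.1, 37.1 and 17.0 CPM against 56.3, 71.6 and 61.7 CPM (log2 fold change 0.99, adjusted p = 0.152). It passed the threshold in 2 of 17 alternatives. These were limma-voom with a random effect for line (adjusted p = 0.00709) and edgeR on the 18 cultures as separate samples (adjusted p = 0.000417). Neither receptor gene was called by edgeR on the 6 lines. *Nf1*/*p53* line 3, which held the most *Il33*, held the least of both receptor genes.

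**Figure D3:**
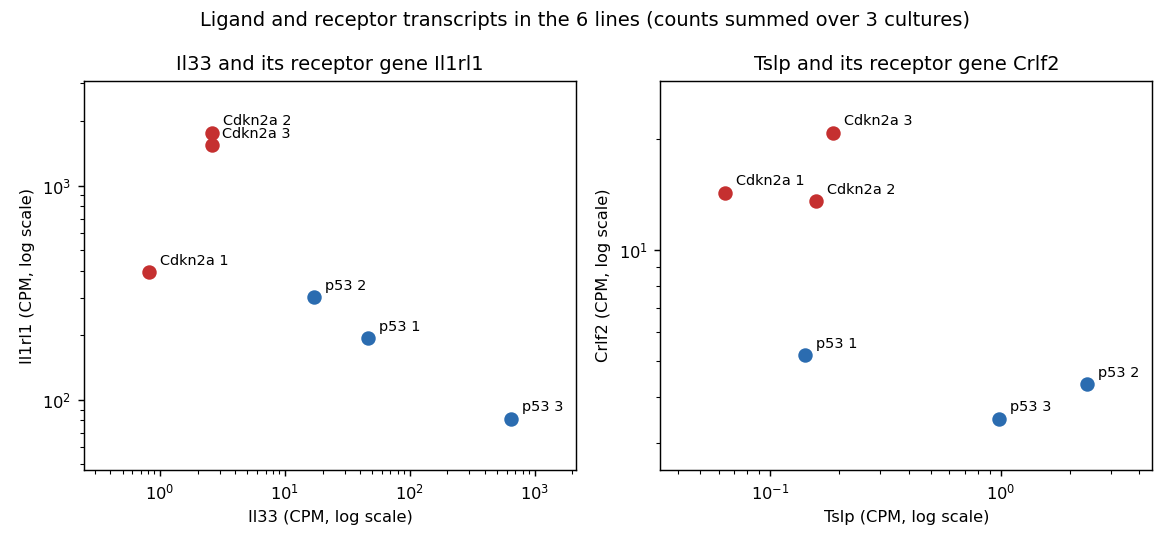
Levels of *Il33* and *Il1rl1* (left) and of *Tslp* and *Crlf2* (right) in the 6 lines, in CPM on log axes, with *Nf1*/*p53* lines in blue and *Nf1*/*Cdkn2a* lines in red. *Nf1*/*p53* line 3 lies at 649 CPM of *Il33* and 81.6 CPM of *Il1rl1*, and the *Nf1*/*Cdkn2a* lines lie at 13.6 to 20.8 CPM of *Crlf2*.

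*Il1rn*, which encodes the decoy ligand that blocks the IL-1 receptor (chr2:24336853-24351494, plus strand), was a transcript of a single line. *Nf1*/*p53* line 2 held 8.09, 8.98 and 7.99 CPM in its cultures, from 591 counts in all. Lines 1 and 3 of that genotype held 8 and 11 counts, *Nf1*/*Cdkn2a* line 1 held 6, and *Nf1*/*Cdkn2a* lines 2 and 3 held 0. A count of 0 allows up to 3 counts, or 0.0433 and 0.0469 CPM in those lines, so *Nf1*/*p53* line 2 was at least 193-fold and at least 178-fold higher, by counting error only. The call among the *Nf1*/*Cdkn2a* lines (adjusted p = 0.0372) rests on 6 counts in total. Of the receptors that IL-1 and its antagonist share, *Il1r1* stood at 20.1, 29.3 and 21.5 CPM against 24.3, 16.5 and 13.9 CPM (log2 fold change -0.38, adjusted p = 0.457), and the decoy receptor *Il1r2* did not exceed 0.0692 CPM.

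The gp130 ligands came next. *Il6* encodes a cytokine of inflammation and the acute phase response (chr5:30013114-30019981, plus strand). Its upstream bases, chr5:30012864-30013113 on the plus strand of GRCm38.p6 from RefSeq, are shown because 1 line expressed it well above the rest. Capitals mark a match to AP-1 (TGANTCA) at -249 to -243, to C/EBP (TTNNGNAAT) at -128 to -120 and to NF-kB at -44 to -35, searched on both strands. Of all windows 6.75, 10.2 and 3.90% hold these letters, and the STAT letters (TTCNNNGAA), held by 7.02%, were not in this window.
*Il6* upstream window: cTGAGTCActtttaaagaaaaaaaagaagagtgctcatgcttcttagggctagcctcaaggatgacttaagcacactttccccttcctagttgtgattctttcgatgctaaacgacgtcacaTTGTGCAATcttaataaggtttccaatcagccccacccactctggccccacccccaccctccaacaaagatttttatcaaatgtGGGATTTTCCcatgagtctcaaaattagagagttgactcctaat
The 3 cultures of *Nf1*/*Cdkn2a* line 3 held 7.24, 7.88 and 5.15 CPM of *Il6*, from 433 counts in all. The other 5 lines held 11 to 59 counts, and their cultures lay between 0.120 and 1.11 CPM. Summed over cultures the levels were 0.3996, 0.834 and 0.152 CPM in the *Nf1*/*p53* lines, against 0.626, 0.736 and 6.77 CPM in the *Nf1*/*Cdkn2a* lines, so the genotypes overlapped. *Nf1*/*Cdkn2a* line 3 was 9.33-fold above the next line of its genotype. The log2 fold change of 2.55 (SE 1.13, adjusted p = 0.246) became 0.56 without that line and 3.30 without *Nf1*/*p53* line 2. The lines differed within both genotypes (adjusted p = 9.90e-04 among *Nf1*/*p53* and 4.67e-09 among *Nf1*/*Cdkn2a* lines).

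*Il11*, a gp130 cytokine known for its part in fibrosis and bone (chr7:4772373-4782859, minus strand), was nearly absent from *Nf1*/*p53* line 3. That line held 10 counts (0.138 CPM), while lines 1 and 2 held 3.56 and 5.47 CPM and the *Nf1*/*Cdkn2a* lines 6.61, 10.50 and 3.96 CPM. *Nf1*/*p53* line 3 was 39.7-fold below the highest line of its genotype, whereas it was the highest line for *Il33*. Between genotypes the log2 fold change was 1.20 (SE 1.06, adjusted p = 0.543). It was 0.64 without *Nf1*/*p53* line 3, 1.93 without *Nf1*/*p53* line 2 and 0.80 without *Nf1*/*Cdkn2a* line 2. The lines differed within the *Nf1*/*p53* (adjusted p = 6.67e-10) and the *Nf1*/*Cdkn2a* genotype (adjusted p = 3.14e-04), but the middle lines of the order, *Nf1*/*Cdkn2a* line 1, *Nf1*/*p53* line 2, *Nf1*/*Cdkn2a* line 3 and *Nf1*/*p53* line 1, each overlapped with the next.

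*Lif* encodes leukemia inhibitory factor, a gp130 cytokine whose expression rises in injured nerve (chr11:4257557-4272514, plus strand). In contrast to *Il6* and *Il11*, it was found at more than 10 CPM in every culture. The *Nf1*/*p53* cultures ranged from 11.9 to 21.5 CPM with a median of 17.4, and the *Nf1*/*Cdkn2a* cultures from 15.9 to 49.8 CPM with a median of 35.3. Lines 2 and 3 of the *Nf1*/*Cdkn2a* genotype, at 48.3 and 34.5 CPM, were above all other lines, while its line 1, at 16.7 CPM, lay within the range of the *Nf1*/*p53* lines (19.0, 13.1 and 18.3 CPM). The means were 16.8 ± 3.20 and 33.2 ± 15.8 CPM (SD, n = 3 lines each). A log2 fold change of 0.98 resulted (SE 0.39, unadjusted p = 0.0421, adjusted p = 0.205). It was 0.61 without *Nf1*/*Cdkn2a* line 2 and 1.31 without *Nf1*/*Cdkn2a* line 1. The lines differed within each genotype (adjusted p = 5.94e-05 and 3.45e-12).

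The receptor genes of these ligands were present in all lines. *Il6st* (gp130) stood at 150, 247 and 193 CPM against 192, 153 and 259 CPM in the *Nf1*/*Cdkn2a* lines. Its log2 fold change of 0.03 (adjusted p = 0.956) changed sign with raw total counts, without *Nf1*/*p53* line 1, without *Nf1*/*Cdkn2a* line 3 and without culture 1. *Lifr*, which encodes the LIF receptor chain, stood at 11.0, 14.5 and 21.1 CPM against 9.87, 4.37 and 5.40 CPM, without overlap (log2 fold change -1.25, SE 0.40, adjusted p = 0.143). *Osmr* was listed with them, although it encodes the receptor of oncostatin M, which is not a member. It stood at 14.9, 56.9 and 29.6 CPM against 4.06, 5.32 and 15.6 CPM (-2.02, adjusted p = 0.154). *Il6ra*, the IL-6 binding chain, stood at 29.1, 21.5 and 14.8 CPM against 14.0, 16.4 and 17.7 CPM (-0.44, adjusted p = 0.391). *Il11ra1*, the IL-11 binding chain, stood at 16.8, 23.1 and 10.1 CPM against 10.4, 9.53 and 22.5 CPM (-0.24, adjusted p = 0.783, and 0.08 without *Nf1*/*p53* line 2), a value that is uncertain because a near-identical copy, *Il11ra2*, may share its reads. None of these 5 receptor genes was called by edgeR on the 6 lines, while DESeq2 on those lines called *Lifr* (adjusted p = 0.0366) and *Osmr* (adjusted p = 0.0187). So did limma-voom with a random effect for line (adjusted p = 0.00960 and 0.00745). With the 18 cultures as separate samples, edgeR called *Lifr*, *Osmr* and *Il6ra* (adjusted p = 0.000281, 0.000504 and 0.0251).

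*Csf1* encodes macrophage colony-stimulating factor, the main survival factor of macrophages (chr3:107741048-107760469, minus strand). Its upstream bases, chr3:107760470-107760719 on the minus strand of GRCm38.p6 from RefSeq, are shown because it was the most abundant member. The capitals mark the match to NF-kB at -154 to -145. It was the only match, the AP-1, C/EBP, STAT and TATA box letters not being in this window.
*Csf1* upstream window: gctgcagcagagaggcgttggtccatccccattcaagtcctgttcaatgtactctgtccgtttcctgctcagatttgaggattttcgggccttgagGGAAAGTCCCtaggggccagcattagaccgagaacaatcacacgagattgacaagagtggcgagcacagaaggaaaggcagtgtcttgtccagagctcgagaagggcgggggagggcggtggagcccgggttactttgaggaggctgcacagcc
The 3 cultures of a line lay close together, at 635, 652 and 628 CPM in *Nf1*/*p53* line 1, 1866, 1776 and 1825 CPM in line 2, and 477, 489 and 477 CPM in line 3. They lay at 382, 433 and 465 CPM in *Nf1*/*Cdkn2a* line 1, 292, 274 and 287 CPM in line 2, and 871, 847 and 908 CPM in line 3. No neighbors in the order of the lines (*Nf1*/*p53* 2, *Nf1*/*Cdkn2a* 3, *Nf1*/*p53* 1, *Nf1*/*p53* 3, *Nf1*/*Cdkn2a* 1, *Nf1*/*Cdkn2a* 2) overlapped in their cultures. The share of the variance of log2 values that lay between lines was 99.9% in the *Nf1*/*p53* and 98.8% in the *Nf1*/*Cdkn2a* lines (adjusted p = 2.62e-20 and 7.71e-18). The genotypes overlapped, at means of 979 ± 733 and 531 ± 310 CPM (SD, n = 3 lines each), with a log2 fold change of -0.88 (SE 0.62, adjusted p = 0.440). Without *Nf1*/*p53* line 2 it was -0.060, and without *Nf1*/*Cdkn2a* line 3, the highest line of its genotype, it was -1.45. The size of the difference thus depended on single lines of both genotypes.

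*Il34*, the other ligand of CSF1R (chr8:110741829-110805924, minus strand), varied less. It stood at 29.1, 24.9 and 52.996 CPM in the *Nf1*/*p53* lines and at 29.5, 19.9 and 16.8 CPM in the *Nf1*/*Cdkn2a* lines, and the line sums overlapped. Its log2 fold change was -0.69 (SE 0.35, adjusted p = 0.299). It was -0.29 without *Nf1*/*p53* line 3, the highest line, and -0.95 without *Nf1*/*Cdkn2a* line 1. Lines differed within both genotypes (adjusted p = 2.15e-10 and 5.37e-07). The value is uncertain to a small degree, since the exons overlap the antisense genes *Gm15894* and *Gm15895*, which held at most 16 and 34 counts in a culture, and the counting is not stated to use strand. Per kb, *Csf1* exceeded *Il34* 8.10-, 27.1- and 3.37-fold in the *Nf1*/*p53* lines and 5.39-, 5.32- and 19.5-fold in the *Nf1*/*Cdkn2a* lines. Their shared receptor gene *Csf1r*, a macrophage gene, stood at 2.98, 3.17 and 1.48 CPM against 0.866, 0.721 and 2.92 CPM (log2 fold change -0.76, adjusted p = 0.527, and -1.67 without *Nf1*/*Cdkn2a* line 3). *Ptprz1*, which encodes another IL-34 receptor, did not exceed 1.70 CPM (-1.08, adjusted p = 0.519, and -0.14 without *Nf1*/*p53* line 2).

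*Csf2* (GM-CSF, chr11:54247271-54249667, minus strand) and *Csf3* (G-CSF, chr11:98701263-98703629, plus strand) were close to the limit of detection. *Csf2* had 7, 43 and 17 counts in the *Nf1*/*p53* lines and 0, 7 and 7 in the *Nf1*/*Cdkn2a* lines. At 0.608 CPM, *Nf1*/*p53* line 2 was at least 12.6-fold above *Nf1*/*Cdkn2a* line 1, whose count of 0 allows up to 0.0481 CPM. *Csf3* had 6, 7 and 1 counts against 14, 39 and 3, the highest being *Nf1*/*Cdkn2a* line 2 at 0.563 CPM. Of the cultures of that line, the *Csf3* levels were 0.580, 0.776 and 0.293 CPM, all above those of the other 5 lines. Among the receptor genes, *Csf2ra* stood at 2.41, 1.27 and 1.12 CPM against 2.66, 3.71 and 4.19 CPM without overlap (log2 fold change 1.135, adjusted p = 0.181), *Csf2rb* and its near copy *Csf2rb2* did not exceed 0.476 and 0.127 CPM, and *Csf3r* did not exceed 0.0138 CPM.

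*Tslp* encodes thymic stromal lymphopoietin, an epithelial and stromal signal for type 2 immunity (chr18:32815383-32819797, plus strand). *Nf1*/*p53* line 2 held 2.56, 2.39 and 2.18 CPM in its cultures, line 3 held 0.723, 1.20 and 1.012 CPM and line 1 held 0.181, 0.199 and 0.0402 CPM. The *Nf1*/*Cdkn2a* cultures held 0 to 0.362 CPM with a median of 0.155. The cultures of *Nf1*/*p53* lines 2 and 3 were thus above all others, and those of line 1 lay among the *Nf1*/*Cdkn2a* cultures. The summed counts were 11, 168 and 71 against 4, 11 and 12. The fitted log2 difference was -3.07 (SE 1.02, unadjusted p = 0.0212, adjusted p = 0.151). It was -2.004 without *Nf1*/*p53* line 2 and -3.60 without *Nf1*/*p53* line 1. The test did not call a difference among the *Nf1*/*Cdkn2a* lines (adjusted p = 0.418), at 4 to 12 counts per line.

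*Crlf2*, which encodes the TSLP-binding receptor chain, was the only called gene among 12 tested receptor genes. It stood at 5.21, 4.34 and 3.50 CPM in the *Nf1*/*p53* lines and at 14.3, 13.6 and 20.8 CPM in the *Nf1*/*Cdkn2a* lines, higher in 3 of 3 lines. This gave a log2 fold change of 1.90 with SE 0.28 (adjusted p = 0.0402). It kept its size with any line left out (1.69 to 2.05), but the call was lost in each case (adjusted p = 0.0606 to 0.124). *Il7r*, which encodes the other chain of the TSLP receptor, was at 0 in 5 lines and at 0.0566 CPM in *Nf1*/*p53* line 2.

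**Figure D4:**
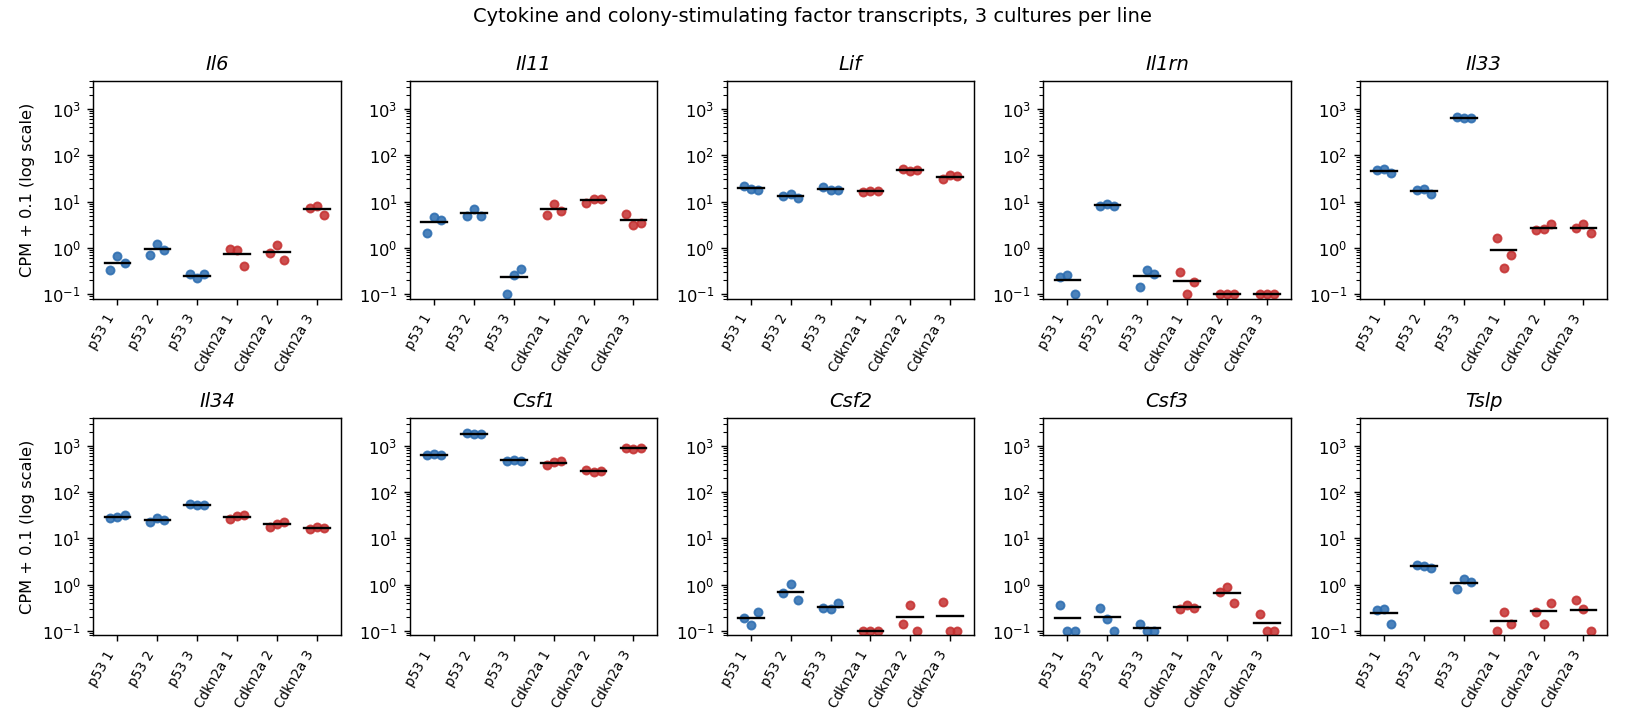
Levels of the 10 members in the 18 cultures, in CPM plus 0.1 on a log axis that is the same in each panel, with *Nf1*/*p53* lines in blue, *Nf1*/*Cdkn2a* lines in red and black bars for the mean of 3 cultures. The 3 points of a line lie close together for *Csf1*, where no neighbors in the order overlap, and *Il1rn* rises above 1 CPM in *Nf1*/*p53* line 2 alone.

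Different members marked different lines, so that no line was highest throughout. *Nf1*/*p53* line 2 was the highest line for *Csf1*, *Il1rn*, *Csf2* and *Tslp*, *Nf1*/*p53* line 3 for *Il33* and *Il34*, *Nf1*/*Cdkn2a* line 2 for *Il11*, *Lif* and *Csf3*, and *Nf1*/*Cdkn2a* line 3 for *Il6*. Neither *Nf1*/*p53* line 1 nor *Nf1*/*Cdkn2a* line 1 was highest for any member. Of 50 neighboring pairs in the 10 orders of lines, 25 overlapped in their cultures.

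Each tested member was also matched with the genes whose levels over the 6 lines were most like its own, by root-mean-square distance of mean-centered log2(CPM + 0.5) values over 6 lines. For *Il33*, the nearest were *Dcn*, which encodes the matrix proteoglycan decorin (distance 0.680), and *Igfbp5*, an IGF-binding protein (0.694). *Dcn* stood at 119, 104 and 934 CPM against 3.40, 6.59 and 4.29 CPM and was called lower in the *Nf1*/*Cdkn2a* lines (log2 fold change -6.34, adjusted p = 0.0470). *Igfbp5*, at -6.02, just missed the threshold (adjusted p = 0.0502). Both genes were picked for their likeness to *Il33*, so their direction follows from the choice. Neither was refitted with a line left out. For *Csf1* they were *Bach2* (0.128) and *Nxph3* (0.145), for *Il34* *S100a10* (0.0797) and *Rhebl1* (0.0913), and for *Lif* *Rasgef1b* (0.107) and *Fah* (0.205). For *Il6* they were *Fmo2* (0.194) and *Tcp11l2* (0.333), for *Il11* *Tnfaip2* (0.345) and *Nox4* (0.355), and for *Tslp* *Ndufs5* (0.242) and *Slc2a6* (0.280). This likeness is a description over 6 lines, and none of the genes matched with the other members was called.

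The wider pathways were described from lists. Of the 17 receptor genes, 12 passed the filter, of which 5 had a positive and 7 a negative log2 fold change, with 1 called and a median log2 fold change of -0.31. Of 23 other cytokines of the same families, 19 were found and 9 tested, with 5 higher, 4 lower, none called and a median of 0.04. Their extremes were *Il7*, the lymphocyte growth factor (1.08, adjusted p = 0.180), and *Ctf1*, which encodes the gp130 ligand cardiotrophin (5.08, 1.46 and 5.22 CPM against 0.449, 0.865 and 0.891 CPM, log2 fold change -2.41, adjusted p = 0.0884).

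Of the 15 genes of JAK-STAT signaling, all tested, 8 were higher and 7 lower with a median of 0.07. The only call was *Pim1*, a kinase gene induced by STAT factors, at 20.4, 20.3 and 22.0 CPM against 8.12, 7.89 and 7.59 CPM (log2 fold change -1.41 with SE 0.18, adjusted p = 0.0287). *Jak3* was the highest (1.90, adjusted p = 0.0538) and *Bcl3*, which encodes an NF-kB cofactor, the lowest (-2.51, adjusted p = 0.131). Of 11 IL-1 receptor signaling genes, 8 were higher and 3 lower with none called and a median of 0.21, from the kinase gene *Irak2* (0.74, adjusted p = 0.106) to *Tab1* (-0.64, adjusted p = 0.116).

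Of 23 regulators of cytokine transcription and mRNA decay, 13 were higher and 10 lower with a median of 0.25. *Egr1*, an immediate early gene of growth factor signaling, was called lower at 87.2, 77.6 and 88.8 CPM against 52.3, 47.7 and 42.3 CPM (log2 fold change -0.83 with SE 0.14, adjusted p = 0.0465). The highest was *Cebpd*, which encodes a C/EBP factor, at 15.6, 12.0 and 5.05 CPM against 40.4, 96.1 and 116 CPM (2.95 with SE 0.55, adjusted p = 0.0528). The lowest was *Nfkb1*, an NF-kB subunit, at 211, 108 and 355 CPM against 114, 111 and 105 CPM (-1.03, adjusted p = 0.196), with its highest level in *Nf1*/*p53* line 3. Without 1 line, the calls of *Pim1* and *Egr1* were lost whichever line it was (adjusted p = 0.0511 to 0.124 and 0.0762 to 0.144).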

How the data were processed

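RNA of 18 cultures was sequenced. The authors deposited raw counts for 35275 genes, which are whole, unnormalized numbers of reads. The submitters' processing notes name CASAVA, STAR 2.5, DESeq2 1.14.1 and the build GRCm38 (mm10), and the counting tool, annotation and strand setting are not given in the sources used here. The paper's methods state 3 lines per genotype plated in triplicate. Libraries held 19560535 to 28312207 counts, and no count columns were left unmapped.

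Since each line is 1 tumor, the counts of its 3 cultures were added up. CPM, log2 fold changes and tests were then computed with edgeR 4.0.16 (filterByExpr with a minimum count of 10 and total of 15, TMM, quasi-likelihood test, Benjamini-Hochberg, threshold 0.05, two-sided) in R 4.3.3. Lines of a genotype were compared on the 18 cultures. Cultures differed beyond sampling noise. The paper's figure legends call the triplicates of a line independent samples, and its methods say only that lines were plated in triplicate. Whether this made the cultures biologically independent is not stated, so p-values from cultures may measure technical spread. In an exact permutation test, 3 against 3 lines cannot give a p below 0.1, so none is given. A count of 0 was read as at most 3 counts, which like the fold bounds covers counting error only. Figures and summaries used Python 3.11.15, numpy 2.4.6, pandas 2.3.3 and matplotlib 3.10.9. Of these steps, the edgeR test between genotypes and the test among the *Nf1*/*p53* lines were also run on simulated counts.

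The 10 members and all gene lists were chosen with earlier results of these data known. Of 140 list genes, 136 were found. Genes named are the members, the receptor genes, the targeted genes, the highest, lowest and any called gene of each list, and the 2 nearest profiles of each tested member at a mean of at least 1 CPM. *Gm15894*, *Gm15895* and the marker genes that set a range were named after their values were seen. A further single-gene result is not reported here. Promoter windows from RefSeq (GRCm38.p6) matched 7 members, *Tslp* was left out, and gene positions are from GENCODE M21, which holds 34490 of the genes. Alternatives were the 18 cultures as samples, limma-voom (limma 3.58.1) with a random effect for line, DESeq2 1.42.0 on the lines, DESeq2 size factors, raw totals, no filter, 10 counts in every line, a replicate block, and each line or culture left out.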

Additional observations from a re-analysis of the deposited data

Results flagged for a closer look

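Of 20 groups of 9 cultures (10 genes in 2 genotypes), 1 held a culture far from the others: for *Il1rn* in the *Nf1*/*Cdkn2a* genotype, culture 1 of line 1 held 0.196 CPM, from 4 counts, while the next culture held 0.0860 CPM and the others 0. The gap took 0.561 of the range. The 95% critical value used is made for 9 independent values. Cultures of a line share a tumor, so how often chance passes it here is not known, and the flagged value rests on 4 counts.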

How the results depend on the processing

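Between genotypes, 0 members and 274 genes were called. The 18 cultures as separate samples gave 5 members and 6096 genes, limma-voom with a random effect for line 1 and 2173, and DESeq2 on the 6 lines 2 and 2060. Raw total counts gave 0 members and 423 genes. Line numbers did not pair the samples (correlations of same-numbered lines -0.117, -0.130 and -0.0832), nor did culture numbers (median -0.00372), and with the line number as a replicate block 0 members and 0 genes were called. With the culture number as a replicate block, 8 and 7 members differed among the *Nf1*/*p53* and the *Nf1*/*Cdkn2a* lines, as without it. With 1 line or culture number left out, 0 members and 0 to 331 genes were called: 0 without *Nf1*/*Cdkn2a* line 1, 2 without its line 2, 23 without its line 3, 172, 27 and 107 without *Nf1*/*p53* lines 1, 2 and 3. Members differing among lines ranged from 8 to 9 and from 6 to 7. Each tested member kept its sign in every alternative that gave a value. *Il6st* reversed to -0.10 with raw total counts and ranged from -0.18 to 0.24 with a line or culture left out, and *Il11ra1* ranged from -0.74 to 0.084. The other alternatives, with DESeq2 size factors, no filter or 10 counts in every line, gave 0 members. The causes were not tested. *Csf2* and *Csf3*, at 0 to 43 and 1 to 39 counts per line, were too low to pass the filter and were not tested in the main fits. The setting with no filter included them.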
